A study of Arabidopsis thaliana with 4 samples.

Results

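The mitochondrial genome of Arabidopsis thaliana was represented by 122 gene models, all models whose code starts with ATMG, of the 27416 models in the values used here. Transcripts of whole seedlings were compared between the wild type (WT) and a mutant (phyB) of the red-light receptor phytochrome B. Both genotypes were of the Col-0 ecotype and were 4.5 days old. They had been kept at 4°C as seed for 4 days, had received white light for 12 h, and had then grown for 4 days in red light of 60 μmol per m2 per s on half-strength MS medium with 1% sucrose. The labels name no phyB allele and list 2 samples per genotype, but the values hold 1 read column and 1 RPKM column per genotype, so there was no replicate check, no SD and no test across samples. The WT titles carry the word reanalysis and the mutant titles do not, so any batch effect and the effect of genotype cannot be told apart.

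Mitochondria keep a small genome that encodes part of the respiratory chain, of the ATP synthase and of the organelle's ribosome, together with proteins that attach haem to c-type cytochromes. Most mitochondrial proteins are encoded in the nucleus. Plant mitochondrial transcripts are often joined to their neighbours, several are trans-spliced from separate pieces, and many cytidines are edited to uridines before translation. Poly(A) tails in plant mitochondria mark RNA for decay, and the libraries were made from RNA bound to oligo(dT) beads, so the values count only the molecules that this selection retained. In whole seedlings, fewer mitochondria or cells of a type and less RNA in each cannot be told apart.

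The columns summed to 33521717 reads for WT and to 33201394 for phyB. Mitochondrial models took 15917 reads in WT, 0.0475% of the column with an exact 95% binomial interval of 0.0467% to 0.0482%. They took 34071 reads in phyB, 0.103% with an interval of 0.102% to 0.104%. The PHYB gene itself was at 36.3 RPKM in WT against 14.1 in the mutant, which is a log2 ratio of -1.36 (95% counting interval -1.45 to -1.28). RPKM is the number of reads scaled by coding length and by the total of the column. The counting interval is a 95% confidence interval of the ratio, computed from the 2 read counts by an exact method, and it covers counting error only.

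Of the 122 models, 36 could be paired with a named gene. They comprised 12 models of complex I, 1 of complex III, 3 of complex IV, 6 of complex V, 5 of cytochrome c maturation, 7 of the ribosome and 2 others, matR and mttB. The other 86 were open reading frames or models that could not be paired with a single named gene. A large insertion of mitochondrial DNA on chromosome 2 covers 72.6% of the mitochondrial sequence of the reference at 95% identity or more. The DNA of a mitochondrial gene and of its copy therefore has nearly the same letters. Copies were sought in the reference sequence only, so statements that a gene has no copy hold for that sequence. Edited cytidines can set a read of a mitochondrial transcript apart from the copy, but the values hold counts and not letters. Copies are printed here because they limit what the values of the genes they cover can say about origin. The copy of atp9, which encodes the membrane ring subunit of the ATP synthase, lies at chr2:3251856-3252080 on the minus strand (TAIR10.1, from RefSeq) and has no mismatch to the mitochondrial gene over 225 bases. The deposited atp9 model is 33 bases longer. Capitals mark the 5 cytidines that RefSeq lists as edited in the mitochondrial transcript.
atp9 copy: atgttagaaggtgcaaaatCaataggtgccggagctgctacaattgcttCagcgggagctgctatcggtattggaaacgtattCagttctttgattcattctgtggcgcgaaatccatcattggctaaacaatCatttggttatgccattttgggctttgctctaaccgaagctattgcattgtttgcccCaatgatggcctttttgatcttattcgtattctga

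Few bases of DNA distinguish such copies from the mitochondrial gene. The gene atp6-1, for the membrane subunit a of the ATP synthase, has a first copy at chr2:3502319-3503476 without a mismatch and a second at chr2:3368151-3369308 with G187A and C652T, counted from the first base of the mitochondrial coding sequence, mitochondrial base first. The windows chr2:3502950-3502990 and chr2:3368782-3368822, both on the plus strand, show the latter position in capitals.
First copy: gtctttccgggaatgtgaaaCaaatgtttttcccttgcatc
Second copy: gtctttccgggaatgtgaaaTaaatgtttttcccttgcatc

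The copy of ccmFN1, for a haem lyase subunit, at chr2:3297890-3299038 carries the single difference C54T over 1149 bases, shown in capitals in the window chr2:3297923-3297963, plus strand.
ccmFN1 copy: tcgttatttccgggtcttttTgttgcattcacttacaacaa

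A mean over both genotypes of 1 RPKM or more was reached by 66 models. Of these, 38 were higher in phyB by 2-fold or more, against 3.20% of all 19296 gene models with such a mean. Some of the 38 reached that mean only through phyB, such as rps7 at 0.601 RPKM in WT and 2.76 in phyB. ATMG00630, which was lower in phyB, reached it only through WT, at 1.16 and 0.904 RPKM. No mitochondrial model with that mean was lower by 2-fold or more, against 2.18% of all. The log2 ratio of phyB over WT was above 0 in 64 of the 66 models, against 49.0% of all models. The counting interval lay wholly above 2-fold in 17 mitochondrial models, against 1.26% of all models. The count of 38 was 20 when 1 RPKM was added to every value, and 17 of 32 when the mean had to reach 5 RPKM. The shares of all models under these changes are not given here, so those counts have no background beside them. The median log2 ratio was 1.19 for the 66 models and -0.01 for all described models. The 56 models below 1 RPKM held 191 reads in WT and 371 in phyB, and 2 of them had no read in either column. Levels kept a similar order in both genotypes, with Spearman's rho 0.95 across the 107 models with reads in both columns, which are not independent since they share libraries and, in part, transcripts. The 88 chloroplast genes with that mean had a median log2 ratio of 0.46, and 11 of them reached 2-fold.

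**Figure D1:**
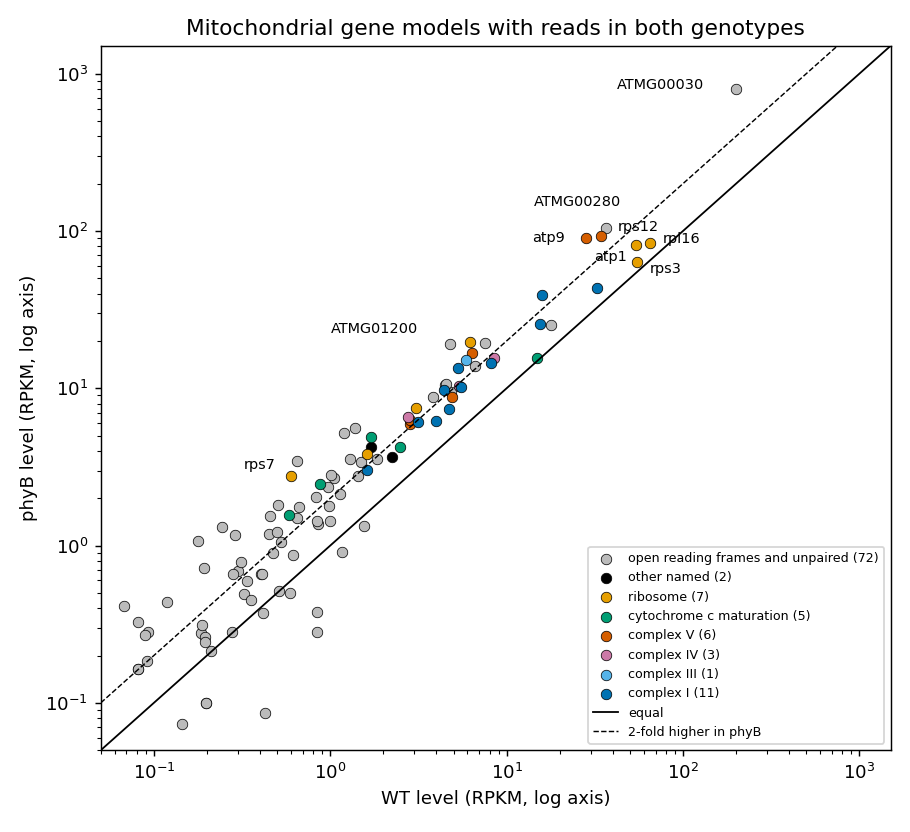
Level of each mitochondrial gene model in WT (horizontal) and phyB (vertical), both in RPKM on log axes, for the 107 models with reads in both columns, coloured by functional group. Most points lie above the line of equality, on both sides of the dashed 2-fold line, with ATMG00030 highest at 201 and 797 RPKM and rps3 near equality at 54.9 and 63.3 RPKM.

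Complex I passes electrons from NADH to ubiquinone, and its nad subunits form the membrane arm and part of the peripheral arm. All 11 described models were higher in phyB. The median log2 ratio was 0.88, and 3 models reached 2-fold. The gene nad9, for a peripheral arm subunit, had the highest level of the group and the lowest ratio. It had 621 reads in WT and 825 in phyB, or 32.3 and 43.4 RPKM, a log2 ratio of 0.42 with an interval of 0.27 to 0.58. The gene nad7, for another peripheral arm subunit, had 633 reads in WT and 1534 in phyB, or 15.9 and 39.0 RPKM. Its log2 ratio was 1.29, with an interval of 1.16 to 1.43, so nad9 and nad7 had similar WT counts but intervals that did not meet. The membrane subunit gene nad4 had 264 and 663 reads, 5.29 and 13.4 RPKM, and the largest ratio of the group at 1.34.

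The other membrane subunits lay in between. The gene nad3 had 15.5 RPKM in WT and 25.8 in phyB, and its log2 ratio was 0.73. The gene nad6 had 5.50 and 10.1 RPKM, a log2 ratio of 0.88. The genes nad1, nad2 and nad5 of complex I are split over the mitochondrial genome and are joined by trans-splicing, so that pieces of one mature transcript appear as separate models. For nad5, the model of exons 1-2 had 194 and 297 reads with a log2 ratio of 0.63 and that of exons 4-5 had 148 and 259 reads with 0.82. The 22-base exon 3 of nad5 had no read in either column. For nad2, the model of exons 1-2 had 85 and 186 reads with a ratio of 1.14 and that of exons 3-5 had 97 and 188 reads with 0.97. For nad1, exon 1 had 21 and 39 reads with 0.91 and exons 2-3 had 43 and 67 reads with 0.65. Within each of these genes the intervals of the pieces overlapped.

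Complex III passes electrons from ubiquinol to cytochrome c, and cob encodes its cytochrome b. The cob model had 233 reads in WT and 595 in phyB, or 5.88 and 15.2 RPKM, a log2 ratio of 1.37 with an interval of 1.15 to 1.59. In complex IV, the terminal oxidase, cox1 had 285 and 544 reads, or 5.37 and 10.3 RPKM, and a log2 ratio of 0.95. The gene cox2 had 222 and 403 reads, 8.46 and 15.5 RPKM, and a log2 ratio of 0.87. The gene cox3 had 74 and 173 reads, 2.77 and 6.53 RPKM, and a log2 ratio of 1.24. All 3 cox models were higher in phyB, and their intervals overlapped.

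Complex V, the ATP synthase, had 2406 reads over its 6 models in WT and 6377 in phyB, a log2 ratio of the sums of 1.42. All 6 models were higher in phyB and 5 were at least 2-fold higher. The gene atp1, for the catalytic head's alpha subunit, had 1750 reads in WT and 4702 in phyB, or 34.3 and 92.9 RPKM, a log2 ratio of 1.44 with an interval of 1.36 to 1.52. The gene atp9, whose copy is printed above, had 245 and 768 reads, or 28.3 and 89.7 RPKM, a log2 ratio of 1.66 with an interval of 1.45 to 1.88. These were the most abundant models of the respiratory complexes in phyB, whereas nad9 stood beside them in WT. The longer chromosome 2 model of atp1 held 1843 reads in WT and that of atp9 held 235, and nad9 has no copy. How reads that match both loci were counted is not stated, so this order of levels may depend on it. The stator subunit gene atp4 had 123 and 320 reads and a log2 ratio of 1.39. The 2 atp6 models, which share a repeated stretch of sequence, had 110 and 228 reads and 100 and 219 reads, with log2 ratios of 1.07 and 1.14. The gene atp8, for a small membrane subunit, had 78 and 140 reads and the lowest ratio of the group, 0.86.

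**Figure D2:**
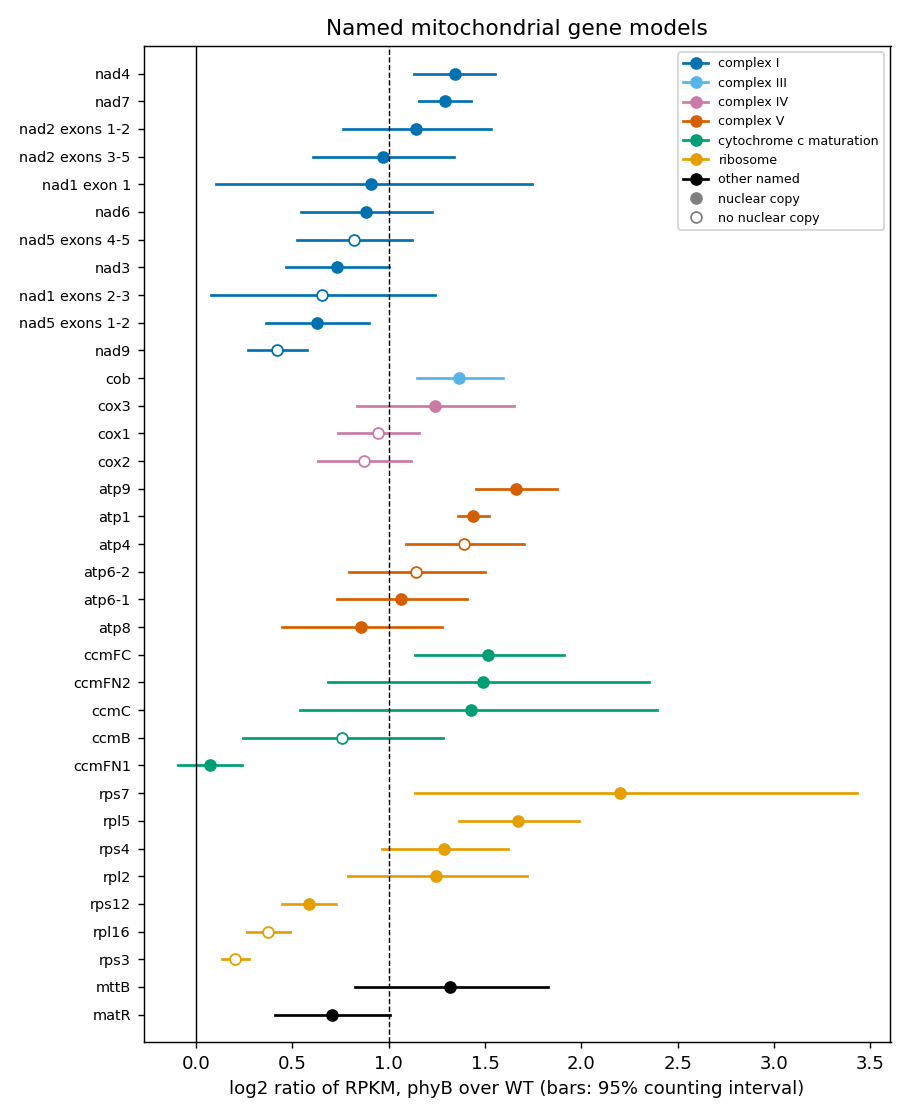
Log2 ratio of RPKM, phyB over WT, for the 35 named models with a mean of at least 1 RPKM, by functional group. Points are ratios, bars are 95% counting intervals, open points have no nuclear copy over at least 80% of their length, the solid line is no difference and the dashed line 2-fold; the ratios run from 0.07 for ccmFN1 to 2.20 for rps7.

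The ccm genes encode the machinery that carries haem and attaches it to cytochrome c and to cytochrome c1. In 4 of the 5 models the counting interval lay above 0, and the exception was the most abundant one. The haem lyase gene ccmFN1 had 573 reads in WT and 597 in phyB, or 14.9 and 15.6 RPKM, a log2 ratio of 0.07 with an interval of -0.09 to 0.24. The models of the other parts of the same lyase, ccmFN2 and ccmFC, had 18 and 50 reads and 78 and 221 reads, with log2 ratios of 1.49 and 1.52. The interval of ccmFC, 1.14 to 1.91, did not meet that of ccmFN1. The gene ccmC, for a haem carrier, had 15 and 40 reads with a ratio of 1.43. In WT, ccmC and ccmFN2 were at 0.580 and 0.877 RPKM, so they reached the mean of 1 RPKM only through phyB. The gene ccmB, for a transporter subunit, had 52 and 87 reads with a ratio of 0.76. Because ccmFN1 held most reads of the group, the summed reads of all 5 gave a log2 ratio of 0.45, below the median of 1.43. That median was 0.70 with a pseudocount of 1.

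The ribosomal protein genes showed the same kind of split. The 3 most abundant, rps3, rpl16 and rps12, held 4942 of the group's 5236 reads in WT and 6048 of its 6860 reads in phyB. The gene rps3 had 3077 reads in WT and 3513 in phyB, or 54.9 and 63.3 RPKM, a log2 ratio of 0.21 with an interval of 0.13 to 0.28. The gene rpl16 had 1178 and 1513 reads, or 65.1 and 84.4 RPKM, a log2 ratio of 0.37. The gene rps12 had 687 and 1022 reads, or 54.2 and 81.4 RPKM, a log2 ratio of 0.59. The less abundant members had larger ratios. The gene rpl5 had 116 and 366 reads with 1.67, rps4 had 112 and 271 reads with 1.29, and rpl2 had 57 and 134 reads with 1.25. The gene rps7 had 9 and 41 reads and a ratio of 2.20 with a wide interval of 1.14 to 3.43. It was at 0.601 RPKM in WT and reached the mean of 1 RPKM only through phyB. With a pseudocount of 1 the rps7 ratio was 1.23, and with the reads of its chromosome 2 copy added it was 1.60, below the 1.67 of atp9. The group's median was 1.25, while its summed reads gave 0.40 with an interval of 0.35 to 0.46.

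The models outside these groups were matR, for a maturase that acts in group II intron splicing, and mttB, for a membrane protein of the twin-arginine translocation type. The matR model had 152 and 246 reads and a log2 ratio of 0.71. The mttB model had 49 and 121 reads and a log2 ratio of 1.32.

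In 5 pairs of named models that lay within 1000 bases on the same strand, the log2 ratios differed by 0.05 to 0.17. Whether pairs farther apart differed more was not tested. The models of rps3 and rpl16 overlap by 134 bases, so some of their reads can belong to both, and nad9 follows 840 bases further on. Their ratios of 0.21, 0.37 and 0.42 were among the 4 lowest of the named models. Short nuclear genes had higher ratios than long ones, and with that length trend removed rpl16 had 0.22, rps12 0.33, nad3 0.47 and exons 2-3 of nad1 0.31, while rps3, a longer gene, had 0.29 and atp9 1.30. Among the mitochondrial models themselves, the 36 under 600 bases had a median of 1.10 and the 30 longer ones 1.27. The genes nad3 and rps12, 45 bases apart, had 0.73 and 0.59. The genes mttB and rpl2, 163 bases apart, had 1.32 and 1.25, and rps4 and the first nad2 model, 763 bases apart, had 1.29 and 1.14. The junction of nad3 and rps12 is shown from the chromosome 2 copy at chr2:3270335-3270439, plus strand, which matches the mitochondrial sequence of the reference. Capitals mark the last 30 bases of nad3 and the first 30 of rps12.
nad3 to rps12: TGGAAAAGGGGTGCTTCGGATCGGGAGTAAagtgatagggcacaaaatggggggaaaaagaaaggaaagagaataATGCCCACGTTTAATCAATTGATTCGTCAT

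The 86 open reading frames and unpaired models held 4117 reads in WT and 13183 in phyB. Of the 31 that reached a mean of 1 RPKM, 20 were higher in phyB by 2-fold or more, and the median log2 ratio was 1.22. One model took most of the reads. ATMG00030 had 2181 reads in WT and 8572 in phyB, or 201 and 797 RPKM, the highest level of all mitochondrial models in both genotypes. Its log2 ratio was 1.99, with an interval of 1.92 to 2.06. It is 1 of 7 models with a coding length of 324 bases, a length that 4 RefSeq open reading frames share. One of those 4, ORF107A, overlaps the large ribosomal RNA gene rrn26 by 185 bases on the opposite strand. Whether ATMG00030 is that frame could not be settled from lengths alone, and the use of strand in the counting is not stated. Without ATMG00030, the summed mitochondrial reads had a log2 ratio of 0.91, against 1.11 with it.

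Of the other abundant open reading frames, ATMG00280, annotated through its copy as similar to the large chain of Rubisco, had 409 and 1157 reads, or 36.6 and 105 RPKM, and a log2 ratio of 1.51. ATMG01200, of the length of ORF294, had 141 and 561 reads, or 4.75 and 19.1 RPKM, and a log2 ratio of 2.01. ATMG00690 had 182 and 468 reads with 1.38. All 3 were more than 2-fold higher in phyB. At the low end, ATMG00370, annotated as a Ycf1-type frame, had 357 and 506 reads, or 17.7 and 25.4 RPKM, and a log2 ratio of 0.52. ATMG00660, of the length of ORF149, had 73 and 142 reads with 0.97. ATMG00516 had 71 and 146 reads with 1.05, and has the length expected for the last exons of nad1, as do 2 further models.

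The make-up of the mitochondrial reads differed between genotypes. Ribosomal protein models took 32.9% of them in WT and 20.1% in phyB. Complex V took 15.1% and 18.7%, complex I 15.1% and 13.4%, and cytochrome c maturation 4.62% and 2.92%. The open reading frames and unpaired models took 25.9% and 38.7%, and ATMG00030 alone 13.7% and 25.2%. The exact binomial intervals of both genotypes, which cover counting error only and no spread between samples, did not overlap for any of these groups. They did overlap for complex III, complex IV and the pair of other named models. A share depends on all other members, and without ATMG00030 complex I took 17.5% in WT and 17.9% in phyB, with intervals that overlapped. Complex III then took 1.70% in WT and 2.33% in phyB, with intervals that did not overlap. Complex V took 17.5% and 25.0% on that basis, and the ribosomal models 38.1% and 26.9%. Shares also depend on how reads that match a nuclear copy were counted, which is not stated.

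**Figure D3:**
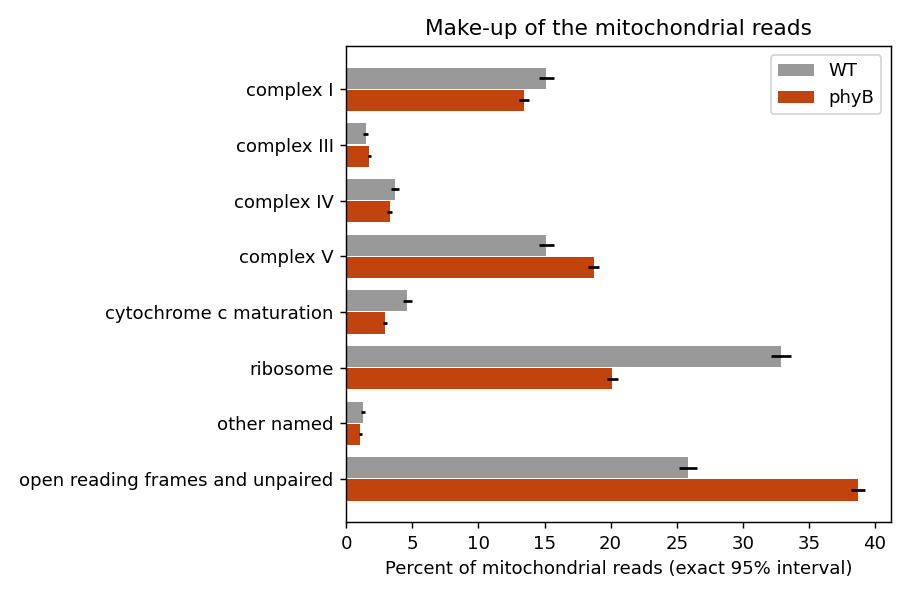
Percent of the mitochondrial reads that fell in each functional group, WT in grey and phyB in red, with exact 95% binomial intervals. The ribosomal share was 32.9% in WT and 20.1% in phyB, and that of open reading frames and unpaired models 25.9% and 38.7%.

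Of 46 pairs of a mitochondrial model and a chromosome 2 model, the 11 with similar lengths and enough reads had similar values. In these pairs, with at least 50 WT reads and lengths within 10% of each other, the mitochondrial models held 2608 reads in WT and 5534 in phyB, and the chromosome 2 models 2688 and 5601. The gene cob had 233 reads in WT and 595 in phyB, and its copy AT2G07727 had 233 and 616. The gene atp9 had 245 and 768 reads, and its copy AT2G07671 had 235 and 742. The difference between the log2 ratios of copy and mitochondrial model ranged from -0.48 to 0.24, with rpl5 at the low end. Outside these pairs the values could differ. AT2G07706 had 6636 and 11414 reads against 4 and 6 of the much shorter ATMG00470, and AT2G07835 had 55 and 88 against 19 and 82 of ATMG00400. Which of both loci a read came from cannot be told from these values.

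**Figure D4:**
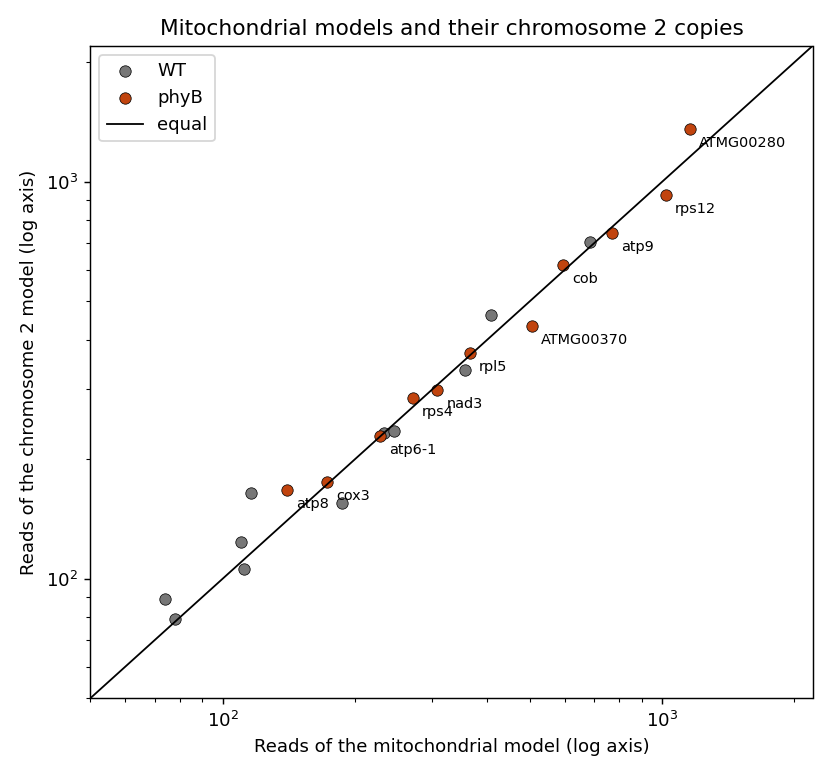
Reads of 11 mitochondrial models (horizontal) and of their chromosome 2 copies (vertical) on log axes, WT in grey and phyB in red, with the line of equality; names stand beside the phyB points. The reads of a copy were between 0.83 and 1.41 times those of the mitochondrial model in WT and between 0.86 and 1.19 times in phyB.

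Named models with and without such a copy were set side by side. The 25 described named models with a nuclear copy had a median log2 ratio of 1.25, and 16 of them were at least 2-fold higher. The 10 without a copy over at least 80% of their length had a median of 0.79, and 2 of them, atp4 and atp6-2, were at least 2-fold higher. Of these 10, cox2, atp6-2 and exons 2-3 of nad1 are covered by a copy in part. All 10 nevertheless had counting intervals above 0. Within complex I, the 3 models without a copy had ratios from 0.42 to 0.82 and the 8 with one from 0.63 to 1.34. Within the ribosome, rps3 and rpl16 had no copy, and the 5 with one had ratios from 0.59 to 2.20. Within complex IV, cox1 and cox2 without a copy had 0.95 and 0.87, and cox3 with one had 1.24. Within cytochrome c maturation, ccmB without a copy had 0.76, while those with one ran from 0.07 for ccmFN1 to 1.52. Within complex V the order was not the same, with atp4 and atp6-2 at 1.39 and 1.14 and the 4 models with a copy from 0.86 to 1.66. The part of the copies in these ratios was not tested.

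The nuclear genes for partner proteins were compared on the same scale. Of all 19142 nuclear genes with a mean of 1 RPKM or more, 2.97% reached 2-fold higher, and their median log2 ratio was -0.01. Of the 3701 under 600 bases, 8.73% reached it, and their median was 0.23. The medians of 0.19 to 0.31 given for complexes I, II, III and V lie near that of short genes, but these lists also hold longer genes. All 18 nuclear complex I genes were above 0, with a median log2 ratio of 0.26 and 0 at least 2-fold higher. The member of highest mean, AT3G03100, for a 17.2 kDa subunit, had 183 RPKM in WT and 247 in phyB, with a log2 ratio of 0.44. The 14 nuclear complex III genes had a median of 0.31, and 2 were at least 2-fold higher. AT5G05370, for subunit 8, had 63.2 and 145 RPKM and a ratio of 1.20, and AT5G25450, for a 14 kDa subunit, had 4.12 and 9.06 RPKM and 1.14. The 9 nuclear complex IV genes had a median of 0.46 and ran from 0.01 to 1.04, and 2 were at least 2-fold higher. AT2G47380 had 63.6 and 127 RPKM with 1.00, and AT5G61310 had 26.2 and 53.9 RPKM with 1.04.

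The 9 nuclear genes of complex V had a median of 0.28 and none reached 2-fold, with ATPQ, for the d subunit, at 297 and 366 RPKM and a ratio of 0.30. The 7 genes of complex II, which has no mitochondrial gene among the named models, had a median of 0.19, and SDH5 had 145 RPKM in both genotypes. Both cytochrome c genes were higher in phyB, CYTC-1 with 199 and 293 RPKM and a ratio of 0.56. Of the alternative oxidases and dehydrogenases, which bypass proton-pumping complexes, 5 of 10 were described. Their median was -0.69, and none reached 2-fold in either direction. AOX1A, the main alternative oxidase, had 56.6 RPKM in WT and 29.5 in phyB, a ratio of -0.94 with an interval of -1.05 to -0.83. For the 16 described genes of mitochondrial RNA synthesis, splicing and decay the median was 0.12 and none reached 2-fold, with the RNA helicase gene PMH2 at 19.4 and 21.3 RPKM. With the length trend removed, the median of complex IV was 0.13, that of complex III 0.18 and that of complex II 0.030. Every nuclear list had a median below those of the mitochondrial groups, of which the lowest was 0.88 for complex I.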

How the data were processed

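RNA of 4 whole-seedling samples, 2 per genotype, was selected with oligo(dT) beads, per the labels' protocols. The deposited read columns, 1 per genotype, were treated as estimated counts, because the authors wrote 0.5 for a model with 0 reads (11 mitochondrial models in WT, 6 in phyB), and these were set to 0. The deposited RPKM values equal reads per coding length and column total. The genome was TAIR10, per the submitters' processing notes. The sources used here do not state the aligner, the counter, the use of strand or the treatment of reads with several matches. No per-sample column was left unused.

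The log2 ratio of RPKM had no pseudocount and a floor of 3 reads for a column at 0. No ratio was formed where the other column was at or under that floor (6 mitochondrial models). Counting intervals were exact conditional 95% intervals (Clopper-Pearson). They cover at most counting error, and they can be too narrow even for that, since PCR copies are not independent molecules. Models had to reach a mean of 1 RPKM. The code was tested on simulated data. With 1 column per genotype no test was run. The codes were paired with named genes through RefSeq notes on chromosome 2 copies (17 models), coding length (15), an in-frame extension of at most 60 bases (3) or the remainder of nad1 (1). Some models, such as nad4L, could not be paired, because 4 models share its length. Copies were found with BLAST 2.17.0 at 95% identity over at least 300 bases. The mitochondrial sequence of the reference is not that of TAIR10, so no mitochondrial coordinates are given.

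Every model with a named gene is described, with the 6 unpaired models of highest mean and the 3 highest and 3 lowest ratios among those with a mean of at least 5 RPKM. Of each nuclear list, members at 2-fold with 5 RPKM in either genotype are named, or else the member of highest mean. The members and lists were chosen with earlier results of these data known. Scaling factors came from edgeR 4.0.16. A sequence that is withheld is not reported here.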

Additional observations from a re-analysis of the deposited data

How the results depend on the processing

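Under TMM, RLE and upper-quartile factors, totals without organelle genes, quantile normalization, pseudocounts and removal of a coding-length trend, the median log2 ratio of mitochondrial models stayed between 0.84 and 1.23. The number at least 2-fold higher in phyB was 38 of 66 as described. It was 38 to 40 under the other scalings, 32 with the length trend removed, 38 with a pseudocount of 0.1 and 20 with 1, 11 at an absolute log2 ratio of 1.5, 17 with the counting interval wholly beyond 2-fold, and 17 of 32 at a mean of at least 5 RPKM. With no filter it was 61 of the 116 models with a ratio, with 3 at least 2-fold lower. Shares of all models at the changed settings are not given here, except that for the interval. The other counts can therefore not be set against a background. Without models that have a copy, a repeat, an overlap or no known place, 7 were left, with 1 at 2-fold and a median of 0.82. With the reads of paired chromosome 2 models of up to 2-fold different length added, the median was 1.14 and the mitochondrial share of reads 0.0622% in WT and 0.137% in phyB. With all insertion models added, chosen after seeing the data, the shares were 0.0848% and 0.176%. This added 12501 reads in WT and 24200 in phyB, of which AT2G07706 alone held 6636 and 11414. Group medians and named genes kept their sign under the scalings, pseudocounts and length trend. The other settings were run for some of them only.

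The nuclear lists were run under the same settings, chosen after seeing the data. Quantile normalization gave medians of 0.18 for complex I, 0.20 for complex III and 0.083 for complex V. Removing the length trend gave 0.18 for complex I, 0.030 for complex II, 0.18 for complex III, 0.13 for complex IV and 0.25 for cytochrome c; the cause was not tested. No paired analysis was possible because the values hold 1 column per genotype, and leaving out a replicate was not run for the same reason.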
